A study of Dimocarpus longan with 9 samples.

Results

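Leaf was set against stem in the longan cultivar “SJM”, using 2 of the 9 RNA sequencing libraries of the series, the library labelled leaf and the library labelled stem. Longan (Dimocarpus longan) is an evergreen fruit tree, and sijimi, or “SJM”, is a cultivar that flowers and fruits all year. Besides stem and leaf (mature leaf, per the study), the series holds seed, pulp, peel (pericarp), young fruit, open flower, bud and root, with 1 library per tissue, from field-grown “SJM” with no stated treatment. The tissue list in the study's methods names mature fruit where the sample labels and the results name stem, and the labels were followed. The sources used here give neither the number of trees or organs in a library nor the age of the stems. Since each tissue had 1 library, no difference below has a replicate check, no test was made, and every comparison describes these libraries.

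Expression was given as FPKM, in which the fragments counted on a gene are divided by its exon length and by the mapped total of the library. The members were the genes above 0 FPKM in leaf or stem, 23633 of the 30014 genes in the table. A gene was counted as higher in one tissue when log2((leaf FPKM + 1)/(stem FPKM + 1)) was at least 1 in size, a 2-fold difference on a scale that understates the differences of genes with low FPKM. Types followed the study's own classification, and 1498 of the 1580 transcription factor genes in the copy used here were in the table, and 1211 of these were above 0 FPKM in leaf or stem.

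Leaf blades are made mostly of photosynthetic mesophyll with a thin epidermis, whereas stems hold more vascular tissue, whose xylem cells lay down thick cellulose walls impregnated with lignin, and carry buds and meristematic cells. Lignin and flavonoids both branch from the phenylpropanoid pathway, which starts from phenylalanine. Transcription factors are proteins that bind DNA and set which genes are read, and they are grouped into types by their DNA-binding domain. In bulk tissue, fewer cells of a type and less RNA per cell cannot be told apart.

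There were 21267 genes above 0 FPKM in leaf and 22103 in stem, and 19737 were above 0 in both. The low FPKM values move in steps of 1 fragment, and by these steps the leaf library was estimated to be 1.39 times as deep as the stem library (0.47 on the log2 scale), the upper end of the range of −0.19 to 0.47 for the other 8 libraries over stem. The estimate is the commonest ratio, shared by 202 of 1908 genes with low values, and holds only if those values stand for few fragments, which was not tested. Spearman's rho between leaf and stem over the 23633 genes was 0.84, which ranked 6 among the 36 pairs of libraries. The 10 genes with the highest FPKM took 4.14% of the summed FPKM in leaf and 6.12% in stem.

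Of the 23633 genes, 2661 (11.3%) were at least 2-fold higher in leaf and 4113 (17.4%) were at least 2-fold higher in stem. The same direction of imbalance held at larger differences: 786 genes were at least 4-fold higher in leaf and 1686 in stem, and 36 genes were at least 32-fold higher in leaf and 107 in stem. The median difference over all 23633 genes was −0.03 on the log2(FPKM + 1) scale. Fewer genes were above 0 in leaf and listed at 0 in stem (1530, of which 324 had at least 1 FPKM in leaf) than above 0 in stem and listed at 0 in leaf (2366, of which 789 had at least 1 FPKM in stem).

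Transcription factor genes leaned to stem. Of the 1211 genes, 147 (12.1%) were at least 2-fold higher in leaf and 329 (27.2%) were at least 2-fold higher in stem, beside 11.3% and 17.4% of all genes. Their median difference was −0.21. Among the 1014 transcription factor genes with at least 1 FPKM in leaf or stem, 14.5% were higher in leaf and 32.4% in stem, beside 13.9% and 21.5% of the 19115 genes at that level. The summed FPKM of the transcription factor genes was nevertheless close, at 60529 in leaf and 59981 in stem, or 6.84% and 6.46% of all FPKM.

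**Figure D1:**
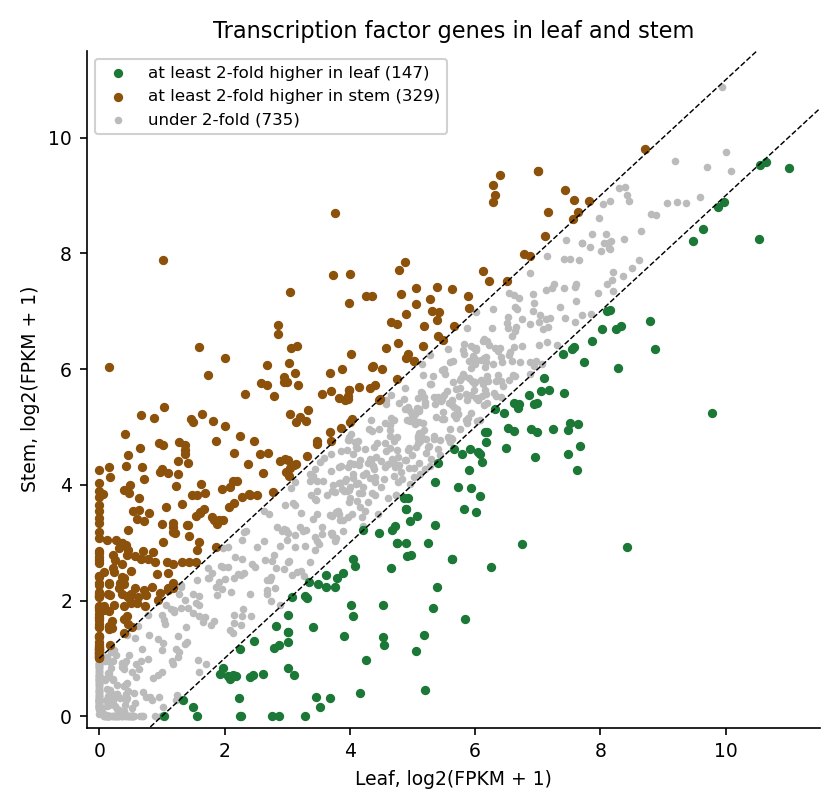
FPKM of the 1211 transcription factor genes above 0 in leaf or stem, as log2(FPKM + 1) in leaf (horizontal) and stem (vertical), with dashed lines at a 2-fold difference. The 147 genes higher in leaf and the 329 higher in stem lie outside the lines, and many of those higher in stem sit at the left edge, with low FPKM in leaf.

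The surplus on the stem side stood mainly at low and middle levels. Where the higher of the 2 values lay between 1 and 5 FPKM, 9.09% of 187 transcription factor genes were higher in leaf and 48.7% in stem, beside 12.5% and 27.4% of 4388 genes of all kinds. Between 5 and 20 FPKM, 12.9% of 271 transcription factor genes were higher in leaf and 38.7% in stem, beside 13.9% and 24.4% of 5676 genes. Between 20 and 100 FPKM the shares drew closer, with 13.9% of 375 transcription factor genes higher in leaf and 23.2% in stem, beside 12.9% and 15.8% of 6583 genes. At 100 FPKM or more the sides were nearly even, with 43 of 181 transcription factor genes (23.8%) higher in leaf and 46 (25.4%) higher in stem, beside 19.2% and 19.7% of 2468 genes. Listed at 0 in the other tissue were 7 of the 147 genes higher in leaf and 57 of the 329 genes higher in stem. For genes of all kinds, 324 of the 2661 higher in leaf and 789 of the 4113 higher in stem were listed so.

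The transcription factor genes furthest toward leaf came from 8 types. Dlo_022819.1, of the TCP type, whose members control cell division and differentiation in Arabidopsis leaves, had 342 FPKM in leaf, against 6.57 FPKM in stem, a difference of 5.50 on the log2(FPKM + 1) scale. Dlo_004061.1, of the GRAS type, the type of the DELLA and SCARECROW proteins, had 35.8 FPKM in leaf, against 0.37 FPKM in stem (4.75). Dlo_033262.1, of the ERF type, annotated as an ethylene-responsive-element-binding-like factor, had 874 FPKM in leaf, against 36.7 FPKM in stem (4.54). These 3 genes had their highest FPKM of all 9 tissues in leaf.

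Genes of the C2C2-GATA, WRKY and MYB types were also among the 10 furthest toward leaf. Dlo_032976.1, of the C2C2-GATA type, which in Arabidopsis includes regulators of chloroplast development, had 56.2 FPKM in leaf and 2.19 FPKM in stem (4.16). Dlo_003898.1, of the WRKY type, known from defence and senescence, had 32.3 FPKM in leaf and 1.19 FPKM in stem (3.93). Dlo_020362.1, of the MYB type, had 106 FPKM in leaf and 6.91 FPKM in stem (3.76). Leaf was the highest tissue for each of them as well. The remaining genes among the 10 furthest toward leaf were a second GRAS gene, Dlo_019465.1, a second ERF gene, Dlo_033259.1, the MYB-related gene Dlo_032959.1 and the C2H2 zinc finger gene Dlo_029771.1, with differences of 3.46 to 3.78. Of these 10 genes, Dlo_019465.1 was higher in seed (37.3 FPKM) than in leaf (35.4 FPKM), Dlo_033259.1 was higher in young fruit (86.7 FPKM) than in leaf (39.3 FPKM), and the other 8 were highest in leaf.

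On the stem side the differences were larger. Dlo_000162.1, of the C2C2-Dof type, a plant type of single zinc finger that in Arabidopsis includes regulators of vascular development, had 1.03 FPKM in leaf, against 236 FPKM in stem (−6.87). Dlo_010033.1, of the MYB type, had 0.12 FPKM in leaf, against 64.4 FPKM in stem (−5.87). Dlo_018981.1, of the ERF type, had 12.6 FPKM in leaf, against 412 FPKM in stem (−4.92). Stem was the highest of the 9 tissues for the Dof and the ERF gene, while the MYB gene was higher in flower bud (176 FPKM) and flower (141 FPKM).

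Homeobox (HB) proteins include regulators of meristems and of vascular patterning, and LOB domain proteins mark the boundaries of lateral organs in Arabidopsis. Dlo_012567.1, of the HB type, had 2.01 FPKM in leaf and 82.7 FPKM in stem (−4.80), with 82.2 FPKM in pericarp. Dlo_012107.1, of the LOB type, had 0.59 FPKM in leaf and 35.8 FPKM in stem (−4.53). Leaf was the lowest of its 9 tissues, and it was higher in flower bud (180 FPKM) and flower (51.5 FPKM) than in stem. Dlo_015346.1, a second C2C2-Dof gene, had 7.25 FPKM in leaf and 160.1 FPKM in stem (−4.29), with a higher value in pericarp (477 FPKM). A further MYB gene, Dlo_019232.1, and the WRKY genes Dlo_010873.1 and Dlo_012276.1 differed by −4.46 to −4.28. Dlo_019232.1 and Dlo_010873.1 were highest in stem, while Dlo_012276.1 had 34.6 FPKM in stem and was highest in flower (578 FPKM). The last of the 10, the M-type MADS-box gene Dlo_002044.1, was listed at 0 in leaf and had 18.0 FPKM in stem.

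**Figure D2:**
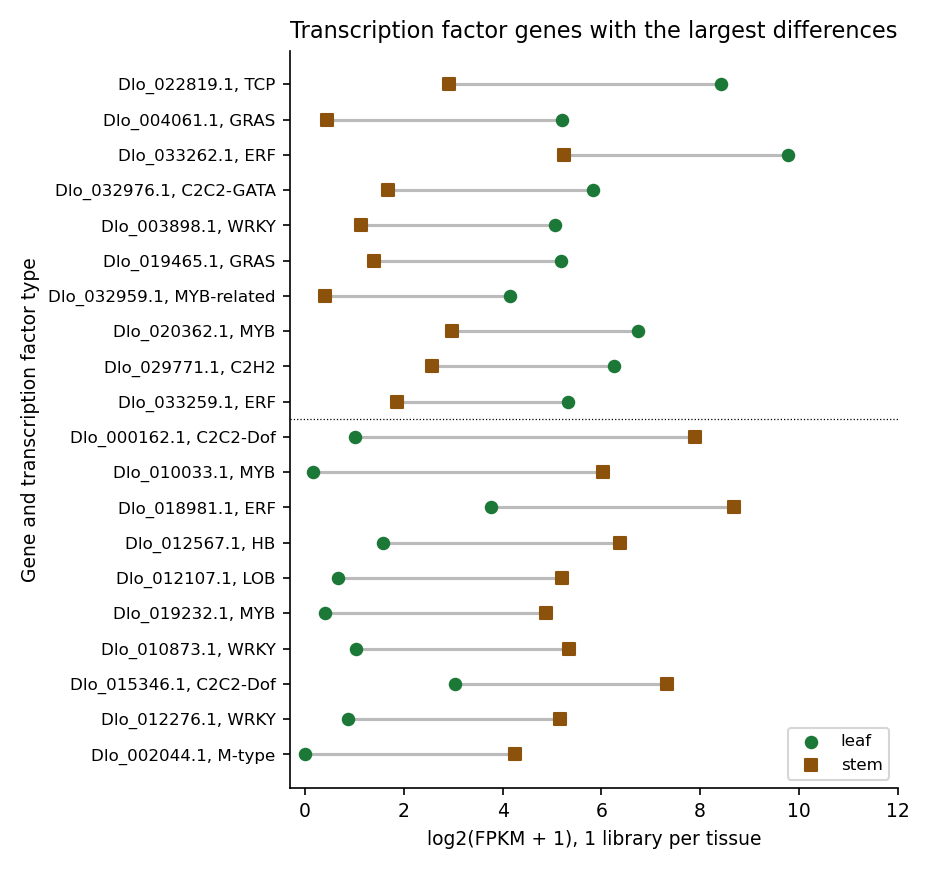
Leaf (circles) and stem (squares) levels, as log2(FPKM + 1), of the 10 transcription factor genes furthest toward leaf (above the dotted line) and the 10 furthest toward stem (below it), 1 library per tissue. Differences ran up to 5.50 on the leaf side and −6.87 on the stem side, and 1 gene of the lower set was listed at 0 in leaf.

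Among the most abundant transcription factor genes the differences were smaller. Dlo_016593.1, of the RAV type, which joins an AP2 and a B3 domain in one protein, was the highest in leaf at 2061 FPKM, against 712 FPKM in stem (1.53). The ERF gene Dlo_007513.1 followed in leaf with 1603 FPKM, against 765 FPKM in stem (1.07), and the WRKY gene Dlo_001658.1 with 1487 FPKM in leaf, against 736 FPKM in stem (1.01). All 3 were highest in leaf among the 9 tissues, and the last was just past the 2-fold limit. In stem the highest was the ERF gene Dlo_025714.2, with 981 FPKM in leaf and 1874 FPKM in stem (−0.93), just short of the limit. With median-ratio scaling the values became 0.98 for Dlo_007513.1, 0.93 for Dlo_001658.1 and −1.02 for Dlo_025714.2, so that these calls depend on the scaling. The C2H2 gene Dlo_033797.1 had 420 FPKM in leaf and 887 FPKM in stem (−1.08), and the PLATZ gene Dlo_016733.1 had 1028 FPKM in leaf and 859 FPKM in stem (0.26).

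By type, the balance between leaf and stem varied widely. Of the 29 groups in the study's list with at least 10 genes above 0 in leaf or stem, 19 had more genes higher in stem, 7 had more genes higher in leaf and 3 had equal numbers. Against the 17.4% of all genes higher in stem, 21 groups had a larger share, and against the 11.3% higher in leaf, 16 groups had a larger share. The shares over all transcription factor genes were themselves larger, at 27.2% in stem and 12.1% in leaf. Genes within a type are not replicates, and these counts are given as a description.

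**Figure D3:**
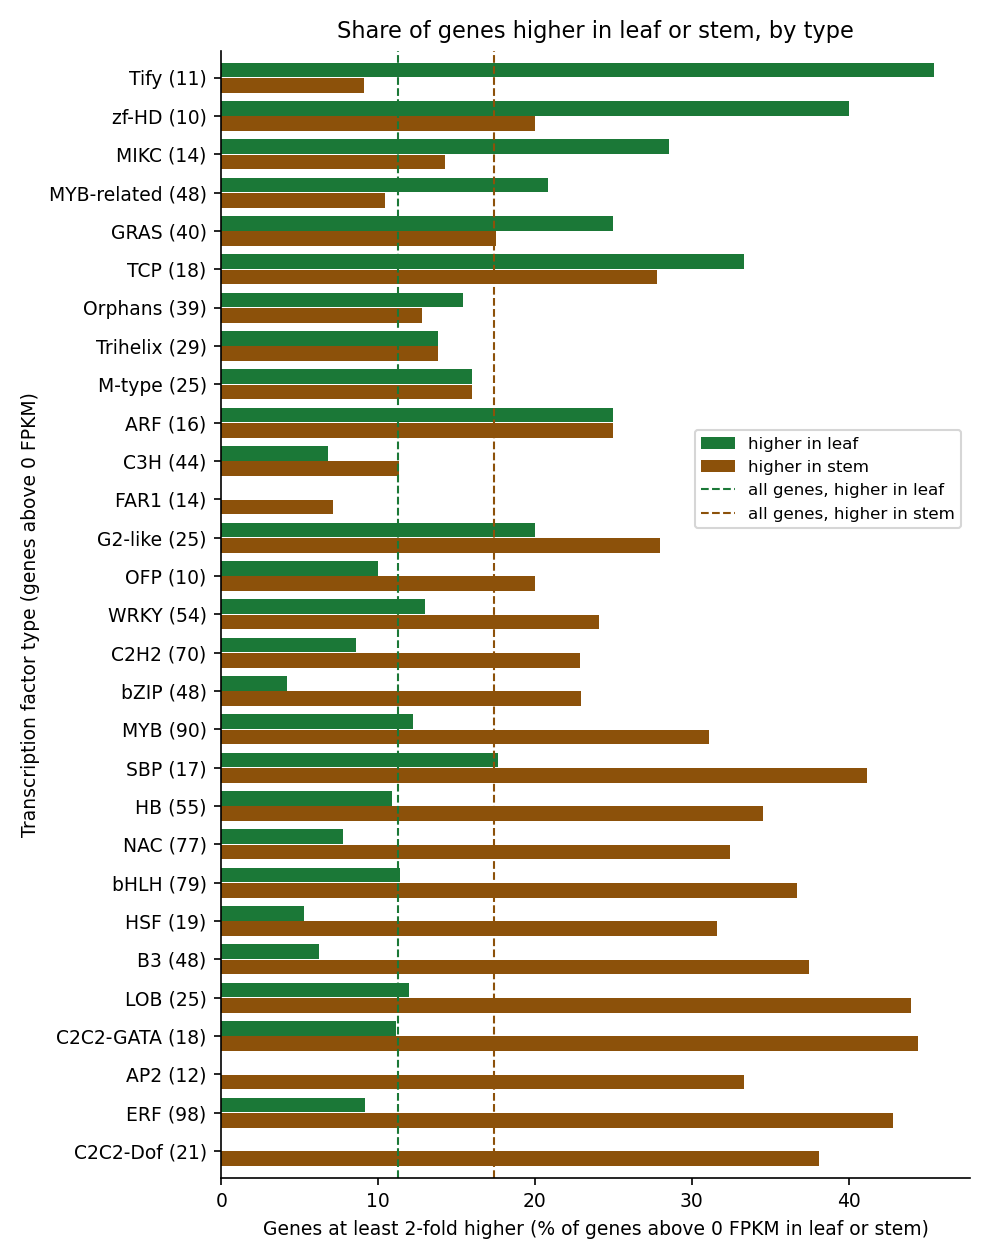
Share of genes at least 2-fold higher in leaf (upper bars) and in stem (lower bars), in % of the genes above 0 FPKM in leaf or stem, for the 29 groups with at least 10 such genes (number in parentheses). Dashed lines mark the shares over all genes, 11.3% for leaf and 17.4% for stem. Tify, zf-HD and MIKC stand at the leaf end, C2C2-Dof, ERF and AP2 at the stem end. At a 4-fold limit the counts of the first 3 become 1 in leaf and 1 in stem for Tify, 0 and 2 for zf-HD and 1 and 2 for MIKC.

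The Tify type, which includes the JAZ repressors of jasmonate signalling, leaned furthest to leaf among the groups with at least 10 genes. Of its 11 genes, 5 (45.5%) were higher in leaf and 1 (9.09%) in stem, beside 11.3% and 17.4% of all genes. The median difference of the type was 0.67, and its summed FPKM was 3161 in leaf and 2015 in stem. At a 4-fold limit 1 gene passed on either side, so the lean rests on differences between 2-fold and 4-fold. Dlo_027824.2 had 311 FPKM in leaf and 63.6 FPKM in stem (2.27), and leaf was its highest tissue. The exception was Dlo_006218.1, with 77.2 FPKM in leaf and 473 FPKM in stem (−2.60), its highest tissue.

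TCP genes were spread to both sides. Of 18 genes, 6 (33.3%) were higher in leaf and 5 (27.8%) in stem, beside 11.3% and 17.4% of all genes. The median difference was 0.01, and with median-ratio scaling the counts became 5 and 5. The leaf side held the more abundant genes, so that the summed FPKM of the type was 1050.1 in leaf and 422 in stem. Besides Dlo_022819.1, described above, Dlo_007989.1 had 195.7 FPKM in leaf and 18.1 FPKM in stem (3.37), and Dlo_020213.1 had 182 FPKM in leaf and 32.6 FPKM in stem (2.45). On the stem side Dlo_012477.1 had 1.10 FPKM in leaf and 11.3 FPKM in stem (−2.55). Dlo_007989.1 and Dlo_020213.1 were named after their values were seen.

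Of the 40 GRAS genes, 10 (25.0%) were higher in leaf and 7 (17.5%) in stem, beside 11.3% and 17.4% of all genes. Of the 48 MYB-related genes, 10 (20.8%) were higher in leaf and 5 (10.4%) in stem. MYB-related proteins carry a single MYB repeat and include parts of the circadian clock in Arabidopsis. Dlo_032959.1 of this type had 16.9 FPKM in leaf and 0.32 FPKM in stem (3.76). In the other direction Dlo_026684.1 had 7.76 FPKM in leaf and 60.2 FPKM in stem (−2.81). The median difference was 0.25 for GRAS and 0.37 for MYB-related genes, beside −0.03 for all genes. The GRAS gene furthest toward stem, Dlo_001481.1, had 0.48 FPKM in leaf and 5.84 FPKM in stem (−2.21).

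MIKC genes are the MADS-box genes best known for floral organ identity and flowering time. Of 14 above 0 in leaf or stem, 4 (28.6%) were higher in leaf and 2 (14.3%) in stem, beside 11.3% and 17.4% of all genes. A further 10 genes were listed at 0 in both. At a 4-fold limit the counts were 1 in leaf and 2 in stem. Dlo_030807.1, annotated as MADS1, had 11.9 FPKM in leaf and 0.24 FPKM in stem (3.37), while its highest value was 109 FPKM in young fruit. Dlo_026514.1 had 0.36 FPKM in leaf and 5.90 FPKM in stem (−2.34), with 23.4 FPKM in flower bud.

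Types tied to light responses differed among themselves. CONSTANS-like proteins act in the photoperiod response of Arabidopsis. Of the 3 C2C2-CO-like genes above 0, 2 were higher in leaf and none in stem: Dlo_010808.1 had 204 FPKM in leaf and 24.3 FPKM in stem (3.02), and Dlo_027015.1 had 10.5 FPKM in leaf and 0.12 FPKM in stem (3.36). Among the 3 genes of the DBB type, which carry a double B-box, Dlo_021562.1 had 259 FPKM in leaf and 102 FPKM in stem (1.33), and Dlo_003684.1 had 41.7 FPKM in leaf and 126 FPKM in stem (−1.57). The G2-like type holds the GOLDEN2-like activators of chloroplast genes along with other subgroups. Of its 25 genes, 5 (20%) were higher in leaf and 7 (28%) in stem, beside 11.3% and 17.4% of all genes. With 5 FPKM added in place of 1, the balance of the type turned to 4 in leaf and 2 in stem. Its gene furthest toward leaf, Dlo_013097.1, had 8.75 FPKM in leaf and was listed at 0 in stem, and the one furthest toward stem, Dlo_026203.1, had 1.82 FPKM in leaf and 32.9 FPKM in stem (−3.59). Which subgroup either gene belongs to is not given in the sources used here. Dlo_010808.1 was named after its values were seen.

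CAMTA proteins bind calmodulin and act in cold and defence responses in Arabidopsis. All 5 genes of this type had their highest FPKM of the 9 tissues in leaf, and 3 were at least 2-fold higher in leaf than in stem. They were Dlo_031925.1, with 198 FPKM in leaf and 32.1 FPKM in stem (2.59), Dlo_009382.1, with 70.4 FPKM in leaf and 29.2 FPKM in stem (1.24), and Dlo_024994.1, with 285 FPKM in leaf and 130 FPKM in stem (1.13). The summed FPKM of the type was 692 in leaf and 292 in stem. The CAMTA genes were named after their values were seen.

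At the other end, 0 of 21 C2C2-Dof genes were higher in leaf and 8 (38.1%) in stem, beside 11.3% and 17.4% of all genes. Their summed FPKM was 322 in leaf and 1106 in stem, and their median difference was −0.82. Besides Dlo_000162.1 and Dlo_015346.1, described above, Dlo_003548.1 had 40.8 FPKM in leaf and 171 FPKM in stem (−2.04), and Dlo_033507.1 had 32.4 FPKM in leaf and 167 FPKM in stem (−2.33). Dlo_030349.1, with 42.2 FPKM in leaf and 26.3 FPKM in stem (0.66), was the Dof gene furthest toward leaf. These last 3 genes were named after their values were seen.

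ERF, the type with the most genes above 0 in leaf or stem, includes factors of ethylene and stress responses. Of its 98 genes, 9 (9.18%) were higher in leaf and 42 (42.9%) in stem, beside 11.3% and 17.4% of all genes. The median difference of the type was −0.82. The summed FPKM of the type was 9819 in leaf and 12776 in stem. The related AP2 type, which in Arabidopsis includes regulators of flowers, seeds and meristems, had 0 of 12 genes higher in leaf and 4 (33.3%) in stem. Its gene furthest toward stem, Dlo_021787.1, had 1.76 FPKM in leaf and 34.2 FPKM in stem (−3.67), with 336 FPKM in seed.

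Of 25 LOB genes, 3 (12%) were higher in leaf and 11 (44.0%) in stem, and of 18 C2C2-GATA genes, 2 (11.1%) were higher in leaf and 8 (44.4%) in stem (2 and 2 at a 4-fold limit). The leaf share of both stood near the 11.3% of all genes, and the stem share of all genes was 17.4%. Dlo_006614.1, the GATA gene furthest toward stem, had 7.90 FPKM in leaf and 83.6 FPKM in stem (−3.25), its lowest and its highest value of the 9 tissues. The LOB gene furthest toward leaf, Dlo_033087.1, had 48.4 FPKM in leaf and 5.57 FPKM in stem (2.91), with 1058 FPKM in pericarp.

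The large NAC, MYB, bHLH and HB types all had more genes on the stem side. NAC and MYB proteins include the switches of vessel and fibre wall formation in Arabidopsis, along with regulators of many other processes. Of 77 NAC genes, 6 (7.79%) were higher in leaf and 25 (32.5%) in stem. Of 90 MYB genes, 11 (12.2%) were higher in leaf and 28 (31.1%) in stem. bHLH proteins serve light, hormone and cell fate responses among others. Of 79 bHLH genes, 9 (11.4%) were higher in leaf and 29 (36.7%) in stem. Of 55 HB genes, 6 (10.9%) were higher in leaf and 19 (34.5%) in stem. For MYB, bHLH and HB the leaf share was near that of all genes. The stem share of each of the 4 types was above 30%, beside 17.4% of all genes and 27.2% of all transcription factor genes. The shares of MYB and NAC were the nearest to the latter.

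The summed FPKM of these types moved less than their counts. NAC genes summed to 4645 FPKM in leaf and 4554 in stem, bHLH genes to 3074 FPKM in leaf and 2990 in stem, and HB genes to 2941 FPKM in leaf and 2813 in stem. MYB genes summed to 1858 FPKM in leaf and 2785 in stem. Single genes ran to both sides within each type. The NAC gene Dlo_025558.1 had 41.1 FPKM in leaf and 3.69 FPKM in stem (3.17), and the NAC gene Dlo_005654.1 was listed at 0 in leaf and had 11.6 FPKM in stem. The bHLH gene Dlo_000489.1 had 22.4 FPKM in leaf and 1.34 FPKM in stem (3.32), and the bHLH gene Dlo_032273.1 had 0.64 FPKM in leaf and 16.1 FPKM in stem (−3.38). Dlo_015591.1, the HB gene furthest toward leaf, had 30.4 FPKM in leaf and 5.89 FPKM in stem (2.19).

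The WRKY, bZIP and C2H2 types had smaller shares on the stem side than these 4 types. Of 54 WRKY genes, 7 (13.0%) were higher in leaf and 13 (24.1%) in stem, with sums of 5642 FPKM in leaf and 5311 in stem. Of 48 bZIP genes, a type that includes light and abscisic acid regulators, 2 (4.17%) were higher in leaf and 11 (22.9%) in stem. Of 70 C2H2 genes, 6 (8.57%) were higher in leaf and 16 (22.9%) in stem. The stem shares of these types lay between the 17.4% of all genes and the 27.2% of all transcription factor genes. In leaf those 2 shares were 11.3% and 12.1%. The furthest toward leaf in the bZIP type was Dlo_010957.1, with 13.9 FPKM in leaf and 1.62 FPKM in stem (2.51), and pulp was its highest tissue at 68.4 FPKM. Toward stem, the bZIP gene Dlo_031760.1 was listed at 0 in leaf and had 12.9 FPKM in stem, and the C2H2 gene Dlo_029408.1 had 2.32 FPKM in leaf and 58.3 FPKM in stem (−4.16).

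Of the smaller types tied to hormones, SRS and BES1 lay on the stem side. All 4 SRS genes above 0 were higher in stem, with summed FPKM of 2.63 in leaf and 42.1 in stem, and SRS proteins promote auxin synthesis in Arabidopsis. The SRS gene with the largest difference, Dlo_027958.2, had 0.31 FPKM in leaf and 14.1 FPKM in stem (−3.53), and leaf was the lowest of its 9 tissues. The BES1 type carries the brassinosteroid response. Of its 6 genes, none was higher in leaf and 4 (66.7%) were higher in stem, beside 11.3% and 17.4% of all genes. Dlo_010565.1 of this type had 7.19 FPKM in leaf and 67.8 FPKM in stem (−3.07).

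Type B response regulators (ARR-B) relay cytokinin, and 1 of their 8 genes (12.5%) was higher in stem, beside 17.4% of all genes. It was Dlo_015483.1, with 1.96 FPKM in leaf and 13.1 FPKM in stem (−2.26). Auxin response factors (ARF) were even, with 4 of 16 genes (25%) higher in leaf and 4 (25%) in stem, beside 11.3% and 17.4% of all genes. The ARF gene Dlo_011077.1 had 117 FPKM in leaf and 30.2 FPKM in stem (1.92), whereas Dlo_029636.1 had 6.69 FPKM in leaf and 57.1 FPKM in stem (−2.92), and leaf was its lowest tissue. Heat shock factors (HSF) had 1 of 19 genes (5.26%) higher in leaf and 6 (31.6%) in stem. Dlo_023685.1 of this type had 6.2 FPKM in leaf and 96.4 FPKM in stem (−3.76).

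Types named for leaf and shoot development did not all lie on the leaf side. YABBY proteins set the lower side of lateral organs in Arabidopsis, and of the 4 genes above 0, Dlo_023494.1 had 22.1 FPKM in leaf and 1.58 FPKM in stem (3.16) and Dlo_010752.1 had 8.17 FPKM in leaf and 35.0 FPKM in stem (−1.97). Growth-regulating factors (GRF) drive cell division in young Arabidopsis leaves. Of 8 genes, 0 were higher in leaf and 2 (25%) in stem, beside 11.3% and 17.4% of all genes. The summed FPKM of the GRF genes was low in both tissues, at 13.7 in leaf and 24.1 in stem. SBP proteins act in the change from juvenile to adult growth, and 3 of 17 genes (17.6%) were higher in leaf and 7 (41.2%) in stem. The SBP gene Dlo_022368.1 had 126 FPKM in leaf and 29.0 FPKM in stem (2.08), while Dlo_028807.2 had 0.93 FPKM in leaf and 25.5 FPKM in stem (−3.78).

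The zinc finger homeodomain type (zf-HD) had 4 of 10 genes (40%) higher in leaf and 2 (20%) in stem, beside 11.3% and 17.4% of all genes. At a 4-fold limit the counts were 0 in leaf and 2 in stem. Dlo_000036.1 had 91.1 FPKM in leaf and 30.6 FPKM in stem (1.54), and leaf and stem were its highest tissues. Dlo_025830.1 had 0.13 FPKM in leaf and 16.5 FPKM in stem (−3.95). Among the 9 PLATZ genes, 1 (11.1%) was higher in leaf and 4 (44.4%) in stem. The gene higher in leaf was Dlo_028250.1, with 177 FPKM in leaf and 29.8 FPKM in stem (2.53). FAR1 genes, which act in phytochrome signalling in Arabidopsis, showed few differences of this size, with 0 of 14 genes higher in leaf and 1 in stem and sums of 247 FPKM in leaf and 224 in stem.

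Further differences in single genes of the remaining types followed both directions. The RAV gene Dlo_011586.1 had 0.41 FPKM in leaf and 14.9 FPKM in stem (−3.49), opposite to the abundant RAV gene Dlo_016593.1. The Trihelix gene Dlo_002457.1 had 59.1 FPKM in leaf and 18.2 FPKM in stem (1.65), and Dlo_023741.1 had 0.56 FPKM in leaf and 12.7 FPKM in stem (−3.14). NF-Y proteins form a complex on CCAAT boxes. Of their subunit genes, 0 of 7 NF-YA, 2 of 9 NF-YB and 1 of 6 NF-YC genes were higher in leaf. In stem 1 NF-YA, 1 NF-YB and 2 NF-YC genes were higher, beside 11.3% of all genes in leaf and 17.4% in stem. NF-YB genes summed to 210.5 FPKM in leaf and 203.7 in stem, and NF-YC genes to 270.3 and 264.3. Furthest toward stem, Dlo_011719.1 (NF-YA) had 2.76 FPKM in leaf and 9.54 FPKM in stem (−1.49). Dlo_004249.1 (NF-YC) had 10.8 FPKM in leaf and 46.6 FPKM in stem (−2.01).

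The other 7 libraries show where the genes on either side were most abundant. Of the 147 transcription factor genes higher in leaf, 88 (59.9%) had their highest FPKM of the 9 tissues in leaf, 20 in root and 11 in seed. Of the 329 higher in stem, 77 (23.4%) had their highest FPKM in stem, 68 in root, 48 in pericarp and 38 in flower bud. Over all genes, 1404 of the 2661 higher in leaf (52.8%) peaked in leaf, 159 in root and 221 in seed. Of the 4113 higher in stem, 865 (21.0%) peaked in stem, 1094 in root, 322 in pericarp and 334 in flower bud.

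**Figure D4:**
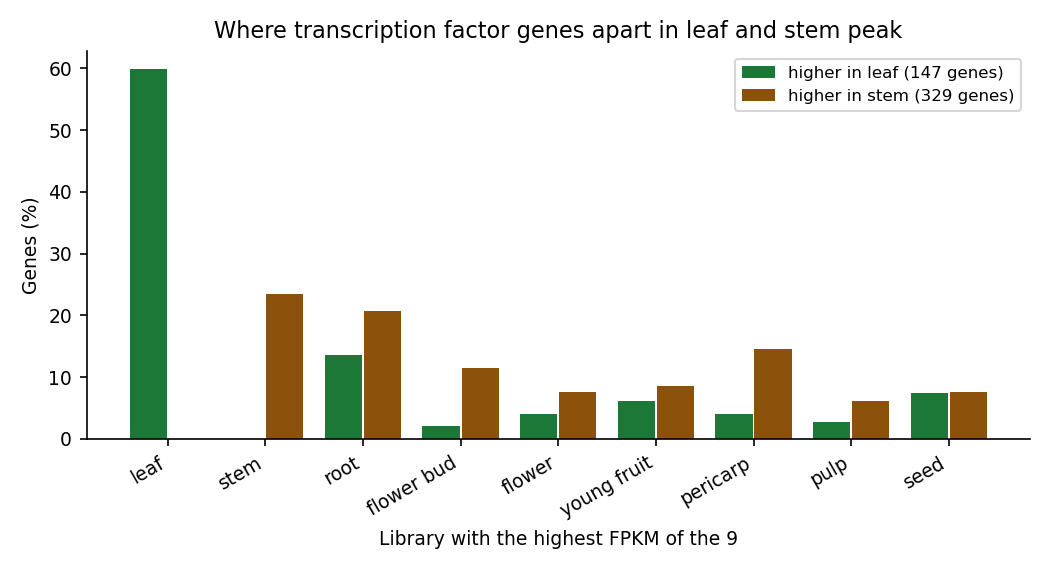
Library with the highest FPKM of the 9, in % of the 147 transcription factor genes higher in leaf (left bars) and of the 329 higher in stem (right bars). Leaf was the highest for 59.9% of the first set, and stem for 23.4% of the second, close to the number that peaked in root.

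The median levels of these 2 sets in the other tissues did not divide in the same way. The 147 genes higher in leaf had a median of 37.0 FPKM in leaf and 8.28 FPKM in stem. Their medians in the other 7 ran from 0.77 FPKM in pulp to 14.8 FPKM in young fruit, with 14.2 FPKM in root and 11.0 FPKM in pericarp. The 329 genes higher in stem had a median of 1.41 FPKM in leaf and 13.5 FPKM in stem, and medians of 8.75 FPKM in root, 8.59 FPKM in pericarp, 8.49 FPKM in young fruit, 8.30 FPKM in flower bud and 0.56 FPKM in pulp. The genes higher in leaf had the higher median in root, young fruit, pericarp, seed and pulp, and the lower median in flower bud and flower. Over all genes the order was the same in these tissues except root. There the median was 5.03 FPKM for genes higher in leaf and 13.35 FPKM for genes higher in stem. Leaf is low in the transcription factor genes higher in stem by the choice of the genes, while pulp was low in both sets of transcription factor genes.

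The labels were checked against annotated genes of leaf and stem functions. The annotations came from the study's tables of genes with sequence differences between cultivars, so they cover a part of the genome, and 695 of the 780 annotated genes that could be matched were above 0 in leaf or stem. Of these, 85 (12.2%) were higher in leaf and 91 (13.1%) in stem, beside 11.3% and 17.4% of all genes. Each list below is short and was described by its counts.

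Of the 8 genes for photosynthesis and chlorophyll, 4 were higher in leaf and 0 in stem, with summed FPKM of 184 in leaf and 56.1 in stem and a median difference of 0.84. Dlo_000983.1, a PsbP protein of the oxygen-evolving complex of photosystem II, had 115 FPKM in leaf, against 22.0 FPKM in stem (2.33). Dlo_030843.1, a chlorophyll(ide) b reductase, which acts in chlorophyll breakdown, had 28.4 FPKM in leaf, against 4.76 FPKM in stem (2.35). The other pair higher in leaf were a carotenoid isomerase, Dlo_000046.1, with 9.72 FPKM in leaf and 3.33 FPKM in stem (1.31), and a homogentisate solanesyltransferase of plastoquinone synthesis, Dlo_009279.1, with 5.24 FPKM in leaf and 1.63 FPKM in stem (1.25).

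The other 4 genes of this list did not separate the tissues. The light-harvesting gene Dlo_012937.1, annotated as chlorophyll a/b binding protein 3 of complex II, was low in both, with 1.5 FPKM in leaf and 1.86 FPKM in stem (−0.19), and was highest in seed (16.7 FPKM). The H subunit of magnesium chelatase, Dlo_023618.1, which commits tetrapyrroles to chlorophyll, had 2.0 FPKM in leaf and 2.76 FPKM in stem (−0.33). Uroporphyrinogen decarboxylase, Dlo_016938.1, had 8.78 FPKM in leaf and 6.26 FPKM in stem (0.43), and protoporphyrinogen oxidase, Dlo_023154.3, had 13.2 FPKM in leaf and 13.5 FPKM in stem (−0.03). The PsbP gene itself was slightly higher in seed (123 FPKM) than in leaf, and the genes of this list check the leaf label only in part.

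The cell wall genes of the annotated list lay on the stem side. Of the 6 above 0, none was higher in leaf and 3 were higher in stem, with summed FPKM of 14.9 in leaf and 216 in stem and a median difference of −1.94. The pectinesterase Dlo_021909.1, which removes methyl groups from wall pectin, had 3.40 FPKM in leaf, against 152 FPKM in stem (−5.12), its lowest and its highest value of the 9 tissues. The expansin Dlo_032029.1, which loosens walls, had 0.15 FPKM in leaf, against 11.9 FPKM in stem (−3.48), with 194 FPKM in root. Dlo_003710.1, a xyloglucosyl transferase that cuts and rejoins xyloglucan chains, had 3.83 FPKM in leaf, against 38.8 FPKM in stem (−3.04). Dlo_033645.1, annotated as the cellulose synthase subunit CesA12, had 2.32 FPKM in leaf and 4.96 FPKM in stem (−0.84), and the polygalacturonase Dlo_019907.1 had 4.90 FPKM in leaf and 7.01 FPKM in stem (−0.44), both short of 2-fold. Wall genes outside this list, from families expanded in longan, did not all lie on the stem side. The pectin methylesterase inhibitor Dlo_009753.1 had 6.37 FPKM in leaf and 1.10 FPKM in stem (1.81). The xyloglucan fucosyltransferases, given below, had a higher sum in leaf. The list therefore checks the stem label only in part.

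Along the phenylpropanoid pathway, the 2 annotated genes with at least 1 FPKM in leaf or stem ran in opposite directions. Cinnamate 4-hydroxylase (C4H), the second enzyme of the pathway, makes the precursor of lignin and flavonoids alike, and its gene Dlo_002085.1 had 54.9 FPKM in leaf, against 368 FPKM in stem (−2.72). Dihydroflavonol 4-reductase (DFR), an enzyme toward anthocyanins and condensed tannins, is encoded by Dlo_025848.1, annotated as DFR2, which had 30.2 FPKM in leaf, against 1.70 FPKM in stem (3.53). Both were higher in root, with 1629 FPKM for C4H and 541 FPKM for DFR2. Dlo_013337.1, annotated as ferulate 5-hydroxylase, an enzyme of syringyl lignin, was listed at 0 in both tissues. Another gene annotated as DFR, Dlo_024800.1, was listed at 0 in leaf and had 0.16 FPKM in stem, with 26.9 FPKM in young fruit.

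**Figure D5:**
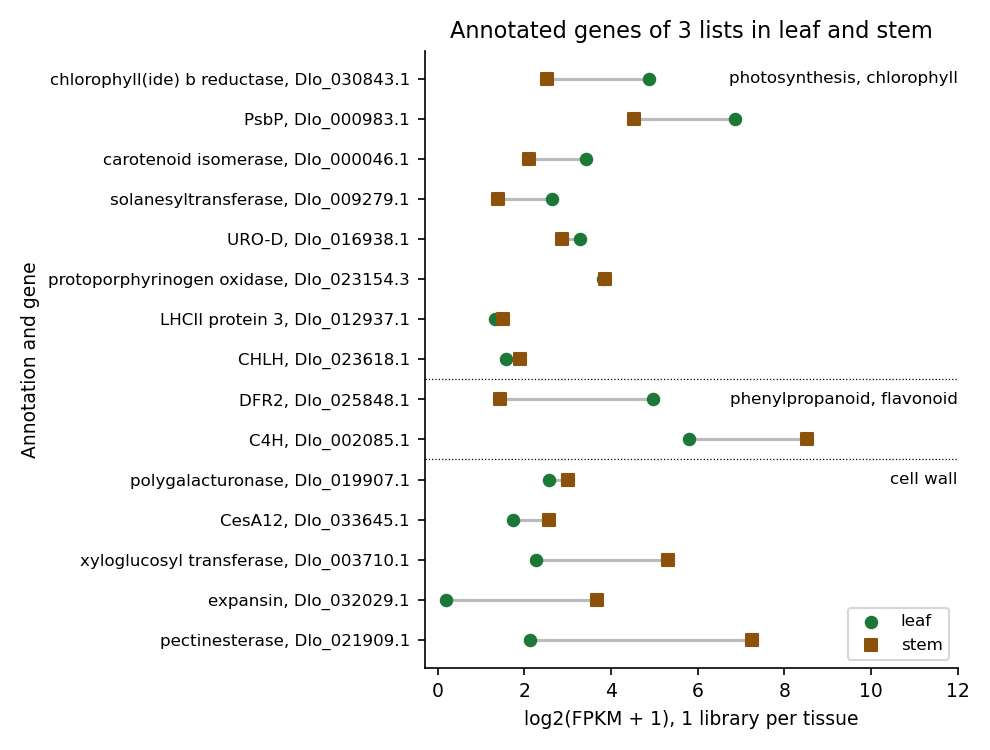
Leaf (circles) and stem (squares) levels, as log2(FPKM + 1), of the annotated genes with at least 1 FPKM in leaf or stem for photosynthesis and chlorophyll (top), phenylpropanoid and flavonoid enzymes (middle) and the cell wall (bottom), 1 library per tissue. In the top list 4 of 8 genes were at least 2-fold higher in leaf, in the bottom list 3 were at least 2-fold higher in stem.

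Among 5 annotated genes of hormone response, 1 was higher in leaf and 0 in stem. It was Dlo_023607.1, listed as ARF type with an auxin response factor domain, although its pathway annotation names a PYR/PYL abscisic acid receptor, and it had 21.1 FPKM in leaf and 7.94 FPKM in stem (1.31). The protein phosphatase 2C gene Dlo_019118.1, an abscisic acid signalling gene by its pathway annotation, had 45.5 FPKM in leaf and 49.1 FPKM in stem (−0.11). The gibberellin receptor gene Dlo_032487.1 (GID1B) had 2.12 FPKM in leaf and 1.56 FPKM in stem (0.29). The other members, Dlo_030332.1 and Dlo_013593.1, differed by −0.17 each.

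Families that the study found expanded in longan, whose member lists are held in part, added genes of defence and sugar metabolism. Kunitz trypsin inhibitors, which block digestive proteases and are stored or made in defence in many plants, summed to 927 FPKM in leaf and 3484 FPKM in stem over 11 genes. Of the 10 above 0, 3 (30%) were higher in leaf and 4 (40%) in stem, beside 11.3% and 17.4% of all genes. Dlo_019810.1 had 232 FPKM in leaf and 1829 FPKM in stem (−2.98), Dlo_019801.1 had 32.5 FPKM in leaf and 434 FPKM in stem (−3.70), and Dlo_019788.1 was listed at 0 in leaf and had 500.5 FPKM in stem. In contrast, Dlo_019805.1 had 477 FPKM in leaf and 381 FPKM in stem (0.33). The fourth gene higher in stem, Dlo_019790.1, was listed at 0 in leaf and had 232 FPKM in stem. The 3 genes higher in leaf were low, Dlo_019807.1 being the highest with 7.05 FPKM in leaf and 1.56 FPKM in stem (1.65). Because these genes are copies of each other and the treatment of reads that match several copies is not given in the sources used here, the split between single members is uncertain. Members other than Dlo_019788.1 and Dlo_019835.1 were named after their values were seen.

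Cell wall invertase cleaves sucrose outside the cell. Its family had 5 of 8 genes above 0 in leaf or stem, and 1 of them, Dlo_011663.1, carried most of the signal with 21.6 FPKM in leaf and 218 FPKM in stem (−3.27), its highest tissue. Wall-associated kinases span the membrane and bind pectin in Arabidopsis. Of 10 genes, 0 were higher in leaf and 2 (20%) in stem, beside 11.3% and 17.4% of all genes. The larger difference was that of Dlo_017857.1, with 1.22 FPKM in leaf and 54.0 FPKM in stem (−4.63), also highest in stem. Cinnamyl alcohol dehydrogenases of the ELI3 group had 0 of 6 genes higher in leaf and 3 (50%) in stem. Of these, Dlo_000545.1 had 4.39 FPKM in leaf and 16.5 FPKM in stem (−1.70). The summed FPKM of the group was nevertheless 55.4 in leaf and 49.8 in stem.

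Some families had a higher sum in leaf. Berberine bridge enzyme-like oxidases summed to 115 FPKM in leaf and 23.4 FPKM in stem. Of 10 genes, 3 (30%) were higher in leaf and 2 (20%) in stem, beside 11.3% and 17.4% of all genes. Dlo_005688.1 of this family had 69.0 FPKM in leaf and 8.09 FPKM in stem (2.95), and leaf was its highest tissue. Xyloglucan fucosyltransferases, which decorate wall xyloglucan, summed to 148 FPKM in leaf and 85.5 FPKM in stem. In this family 2 of 7 genes (28.6%) were higher in leaf and 1 (14.3%) in stem. Dlo_024657.1 had 46.5 FPKM in leaf and 11.9 FPKM in stem (1.88), and Dlo_010370.1 had 10.6 FPKM in leaf and 24.5 FPKM in stem (−1.13). The sums of the 9 UGT71 glycosyltransferases were nearly even, at 248 FPKM in leaf and 231 FPKM in stem. Of these genes 2 were higher in leaf and 0 in stem, Dlo_010988.1 having 13.5 FPKM in leaf and 3.45 FPKM in stem (1.71). All 6 pectin methylesterase genes of the expanded family were listed at 0 in both tissues, 0 of 5 polygalacturonase genes of the expanded family reached 1 FPKM, and 0 of 9 subtilases differed 2-fold.

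Outside these lists, further annotated genes stood far apart in the 2 tissues. Dlo_008167.1, a calmodulin-like EF-hand protein (CML), which senses calcium, had 603 FPKM in leaf, against 11.6 FPKM in stem (5.58). A pair of FAF family genes, known from the shoot meristem of Arabidopsis, were both higher in leaf, Dlo_020129.1 with 55.4 FPKM in leaf and 2.47 FPKM in stem (4.02) and Dlo_032504.1 with 585 FPKM in leaf and 47.2 FPKM in stem (3.60). All 3 genes were highest in leaf among the 9 tissues. Dlo_011231.1, with terpene synthase domains and a pathway annotation as isoprene synthase, had 9.76 FPKM in leaf and was listed at 0 in stem. Its highest tissue was flower (13.1 FPKM). The tyrosine aminotransferase gene Dlo_014672.1 had 429 FPKM in leaf and 72.1 FPKM in stem (2.56), and was highest in flower bud (454 FPKM).

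Toward stem, the annotated genes included several oxidases. The ascorbate oxidase Dlo_021756.1, a copper enzyme of the cell wall space, had 7.81 FPKM in leaf, against 235 FPKM in stem (−4.74), and 8311 FPKM in flower. The copper amine oxidase Dlo_018642.1, which breaks down amines and gives hydrogen peroxide, had 2.95 FPKM in leaf, against 38.9 FPKM in stem (−3.34). The lipoxygenase gene Dlo_006066.1, annotated as LOX1, had 15.6 FPKM in leaf, against 118 FPKM in stem (−2.85). None of these 3 genes had its highest value in stem. Dlo_008064.1, with the ALOG domain of a family that acts at organ boundaries, had 2.36 FPKM in leaf and 23.8 FPKM in stem (−2.88), and 159 FPKM in root. The protein kinase gene Dlo_032138.2 had 11.8 FPKM in leaf and 162 FPKM in stem (−3.67).

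Over all genes, those furthest toward leaf were Dlo_011144.1, with 270 FPKM in leaf and 0.27 FPKM in stem (7.73), and Dlo_014028.1, with 623 FPKM in leaf and 2.40 FPKM in stem (7.52). Both were highest in leaf among the 9 tissues. Those furthest toward stem were the Kunitz inhibitor gene Dlo_019788.1 and Dlo_011004.1, which had 1.46 FPKM in leaf and 837 FPKM in stem (−8.41) and was higher in root (1410 FPKM). No name was taken for Dlo_011144.1, Dlo_014028.1 or Dlo_011004.1.

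The limit of 2-fold divides genes of nearly equal standing. Just inside it on the leaf side was the C3H gene Dlo_015573.1, with 17.6 FPKM in leaf and 8.28 FPKM in stem (1.0), and just outside the GRAS gene Dlo_002636.1, with 134 FPKM in leaf and 67.2 FPKM in stem (0.98). On the stem side the C3H gene Dlo_019035.1, with 90.3 FPKM in leaf and 182 FPKM in stem (−1.0), was just inside, and the Alfin-like gene Dlo_019139.1, with 21.5 FPKM in leaf and 43.8 FPKM in stem (−0.99), was just outside.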

How the data were processed

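RNA was extracted with Trizol from the tissues of “SJM”, and Illumina paired-end libraries were sequenced. The authors removed adaptors, low-quality reads and organelle and ribosomal reads. They aligned the rest to the draft genome with TopHat2 2.0.10 (submitters' processing notes) and deposited FPKM values with 2 decimals. The draft genome is of another cultivar, “HHZ”. The study reports that part of the reads did not map, and proposes that the cultivars differ much in sequence. How far this bears on genes listed at 0 was not tested. The tool that computed FPKM is not given in the sources used here. Values were used as deposited, and log2((leaf FPKM + 1)/(stem FPKM + 1)) was computed for all genes. FPKM are not counts, so no count model or counting interval was used. Relative depth was the commonest ratio of low values, from 0.2 to 2 FPKM (tolerance 0.03, log2). It was recovered on simulated data only where low values held few fragments.

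Members and lists were chosen with earlier results of these data known. Named genes were the 10 transcription factor genes furthest to each side, the furthest in each of 36 types (2-fold, 5 FPKM), the 3 most abundant per tissue, members of 4 annotated lists with 1 FPKM, the 10 furthest other annotated genes (5 FPKM), the furthest in each of 12 families, and the 2 furthest genes overall. Not all of them are described, and others are marked as named after their values were seen. The alternatives were 0.1 or 5 FPKM added, a 1 FPKM minimum, median-ratio scaling and a 4-fold limit. Computations ran in Python 3.11.15 with pandas 2.3.3 and numpy 2.4.6, rank correlations with scipy 1.17.1, and plots with matplotlib 3.10.9.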

Additional observations from a re-analysis of the deposited data

How the results depend on the processing

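Genes higher in leaf numbered 2661, and 4282 with 0.1 FPKM added in place of 1, 1512 with 5 FPKM added and 786 at a 4-fold limit. Genes higher in stem numbered 4113, and 6341, 2266 and 1686 under the same settings. Transcription factor genes higher in leaf numbered 147, and 50 at 4-fold, and those higher in stem 329, and 194 with 5 FPKM added and 148 at 4-fold. The stem share of the called genes was 60.7%, and 59.7%, 60.0%, 68.2% and, with median-ratio scaling, 64.3%. Among transcription factor genes it was 69.1%, and between 64.7% and 74.7% under these alternatives. The limits themselves set these counts. Of 174 counts by type or list, 46 moved by over 1.5 times with 0.1 FPKM added, 49 with 5 FPKM added, 7 with median-ratio scaling and 79 at 4-fold. Among the 29 types shown, the balance of leaf and stem turned with 5 FPKM added for G2-like (4 genes higher in leaf and 2 in stem) and at 4-fold for zf-HD (0 and 2) and MIKC (1 and 2). Tify and C2C2-GATA became even at 4-fold, with 1 and 1 and with 2 and 2, TCP became even with median-ratio scaling (5 and 5), and the cause was not tested. The balance of ARF, M-type, Trihelix, FAR1, OFP and Orphans, near even or of few genes, also changed under some setting. Of the 125 genes of the naming rule none changed direction. With 5 FPKM added, 8 no longer passed 2-fold. With median-ratio scaling, which moves the median difference of all genes to −0.08, the abundant genes Dlo_007513.1 (0.98) and Dlo_001658.1 (0.93) no longer passed and Dlo_025714.2 (−1.02) did. A minimum of 1 FPKM in leaf or stem cannot alter these counts, since with 1 FPKM added no gene below it can differ 2-fold. No paired analysis was possible because leaf and stem had a single library each, and depth per gene is unknown, so no counting error can be given for differences at low FPKM.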

Other observations

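Other families among the annotated genes are given by their counts, beside 11.3% higher in leaf and 17.4% higher in stem over all genes. Of 23 NB-ARC genes, the intracellular receptors of plant immunity, 1 was at least 2-fold higher in leaf and 0 in stem, and 12 had at least 1 FPKM in leaf or stem. The exception was Dlo_026950.1, with 8.97 FPKM in leaf and 3.79 FPKM in stem. Pentatricopeptide repeat genes, whose proteins process organelle RNA, had 2 of 18 higher in leaf and 0 in stem. Kinases with leucine-rich repeats had 0 of 13 higher in leaf and 3 in stem, among them Dlo_000483.1, annotated as HAESA-like, with 2.55 FPKM in leaf and 17.1 FPKM in stem. S-locus receptor kinases ran both ways, with 3 of 13 higher in leaf and 3 in stem. Dlo_010628.1 had 27.0 FPKM in leaf and 4.54 FPKM in stem, and Dlo_011255.1 had 7.57 FPKM in leaf and 51.6 FPKM in stem.

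Cytochrome P450 genes had 2 of 11 higher in leaf and 3 in stem, C4H among them. Dlo_001160.1, annotated as an abscisic acid 8'-hydroxylase, the step that inactivates this hormone, had 1.64 FPKM in leaf and 11.1 FPKM in stem. ABC transporters had 2 of 10 higher in leaf and 1 in stem, and Dlo_003793.1 of the G subfamily had 50.5 FPKM in leaf and 9.77 FPKM in stem. Of 5 kinesins, the motors of the spindle and of microtubule transport, 0 were higher in leaf and 1 in stem, and all 5 were lower in leaf by 0.14 to 1.97 on the log2(FPKM + 1) scale. These lists are a part of each family, chosen for sequence differences between cultivars, and the genes named here were chosen after their values were seen.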
